A study of Rattus norvegicus with 6 samples.

Results

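Of the 456 microRNA names listed in the gene tables of cultured rat neural progenitors, 53 (11.6%) had a mean level of at least 1 FPKM in polyA-selected RNA. FPKM is the number of fragments scaled to the annotated length of a gene and to the fragments mapped in the library. Members were found by name (Mir or Mirlet followed by a digit) and were chosen by their FPKM, with rows of one name summed, the libraries of each replicate averaged, and then the 2 replicates averaged. The same threshold was reached by 10481 of all 17337 gene names (60.5%). Since the levels themselves chose the 53 loci, they are given below as a description, and no test was made of them.

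The cells were untreated cortical neural progenitors of Sprague Dawley rats at embryonic day 14 (E14), expanded in StemPro neural medium with bFGF and EGF and taken after the second passage. A and B were independent biological replicates, each with a pair of technical libraries of polyA RNA (A1 and A2, B1 and B2), so a mean carries the SD of 2 replicates and a technical library is not a biological replicate. There was 1 condition, and the only comparison the design held was between A and B. The 2 Start-seq samples of short capped RNA made from the same cultures were not analysed here.

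A microRNA begins as a long, capped and polyadenylated primary transcript, either of its own or as part of a host gene, often inside an intron. Drosha and Dgcr8 cut the hairpin out in the nucleus, Dicer trims it in the cytoplasm, and the mature strand of about the length of the sequences printed below is loaded onto an Argonaute protein and pairs with messenger RNAs through its seed. Neither the hairpin nor the mature strand carries a polyA tail, so an FPKM over a hairpin interval in these libraries counts pieces of polyadenylated RNA that run through that interval, and is no measure of mature microRNA.

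A mature sequence was found in the RefSeq table (build GRCr8) for 46 of the 53 names, 70 sequences in all. Shown first, 5′ to 3′ and with the seed (bases 2 to 8) in capitals, are 5 loci among the 12 highest that share no seed with another member.

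rno-miR-3064-3p: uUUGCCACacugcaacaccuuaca
rno-miR-568: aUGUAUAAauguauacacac
rno-miR-1896: uGGUGGGUgaggaggagg
rno-miR-3120: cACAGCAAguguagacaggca
rno-miR-2985: uGUUAUAGuaucccaccuaccc

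A further 4 seeds were held by more than 1 member, Mirlet7b, Mir25 and Mir92b of the 12 highest among them, and these sequences are shown because they tie the loci to known families. The first group is let-7, a family that rises as neural cells differentiate in many animals. The sequences of Mir25, Mir92b, Mir93 and Mir106b come from the cluster in Mcm7 and its relative Mir92b, which belong with the mir-17 to mir-92 clusters linked to proliferation. The last is the product of the strand opposite to mir-9, a microRNA abundant in the developing brain.

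rno-let-7b-5p: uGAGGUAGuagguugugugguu
rno-let-7d-5p: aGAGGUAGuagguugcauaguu
rno-let-7i-5p: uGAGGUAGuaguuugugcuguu
rno-miR-25-3p: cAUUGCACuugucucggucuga
rno-miR-92b-3p: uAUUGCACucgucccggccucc
rno-miR-93-5p: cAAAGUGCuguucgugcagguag
rno-miR-106b-5p: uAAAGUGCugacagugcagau
rno-miR-9b-5p: uUCGGUUAucuagcuuuau

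The let-7 seed GAGGUAG was found for 8 names in the tables, of which 3 were among the 53. Mirlet7c-2, a let-7 locus and a member, is not in that count, since only names matched to a mature sequence were counted. The seed AUUGCAC was found for 6 names, 2 of them members (Mir25 and Mir92b), and AAAGUGC for 5 names, also with 2 members (Mir93 and Mir106b). The seed UCGGUUA belonged to 3 names, of which Mir3597-1 and Mir3597-2 were members and Mir3597-3 was not.

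The 4 libraries differed in depth. Deposited coverage divided by FPKM, which measures how many reads stand behind 1 FPKM, came to 24.3, 22.7 and 24.4 in A1, A2 and B1 but to 6.83 in B2, so B2 had 28.1% of the depth of B1. The median read depth over the 48 members with a single locus was likewise lowest in B2, at 14.2 against 57.4 in B1, 59.2 in A2 and 72.8 in A1. The read depth of members in B2 ran from 0.337 (Mir3593) to 753 (Mir3064), and 148 microRNA names were above 0 there, against 211 in A2. Markers of neural progenitors were present (7 of the 8 on the list were in the tables, and all 7 were above 1 FPKM, Sox2 at 478 and Pax6 at 33.9), as were those of astrocytes (4 of 4) and neurons (6 of 6), whereas none of the 4 microglial, 4 endothelial and 2 erythroid markers reached 1 FPKM. All 6 mesenchymal and meningeal markers were higher in B than in A, with summed FPKM of 616 and 598 in A1 and A2 and of 2429 and 2833 in B1 and B2.

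The list was steep. Mean levels ran from 1.02 to 107.8 FPKM with a median of 2.33, against a median of 16.6 over all genes at 1 FPKM or more. There were 6 members at 10 FPKM or more, 5 between 5 and 10, 21 between 2 and 5, and 21 between 1 and 2. Mir3064 alone held 29.1% of the summed FPKM of the 53, and the top 5 held 57.7%. All 53 were above 0 in every library, 39 never fell under 1 FPKM, and 14 did so in 1 library or more. The highest library of a member was typically 2.30 times its lowest (median over the 53). A further 205 microRNA names were above 0 but under the threshold, and 198 were at 0 in every library.

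**Figure D1:**
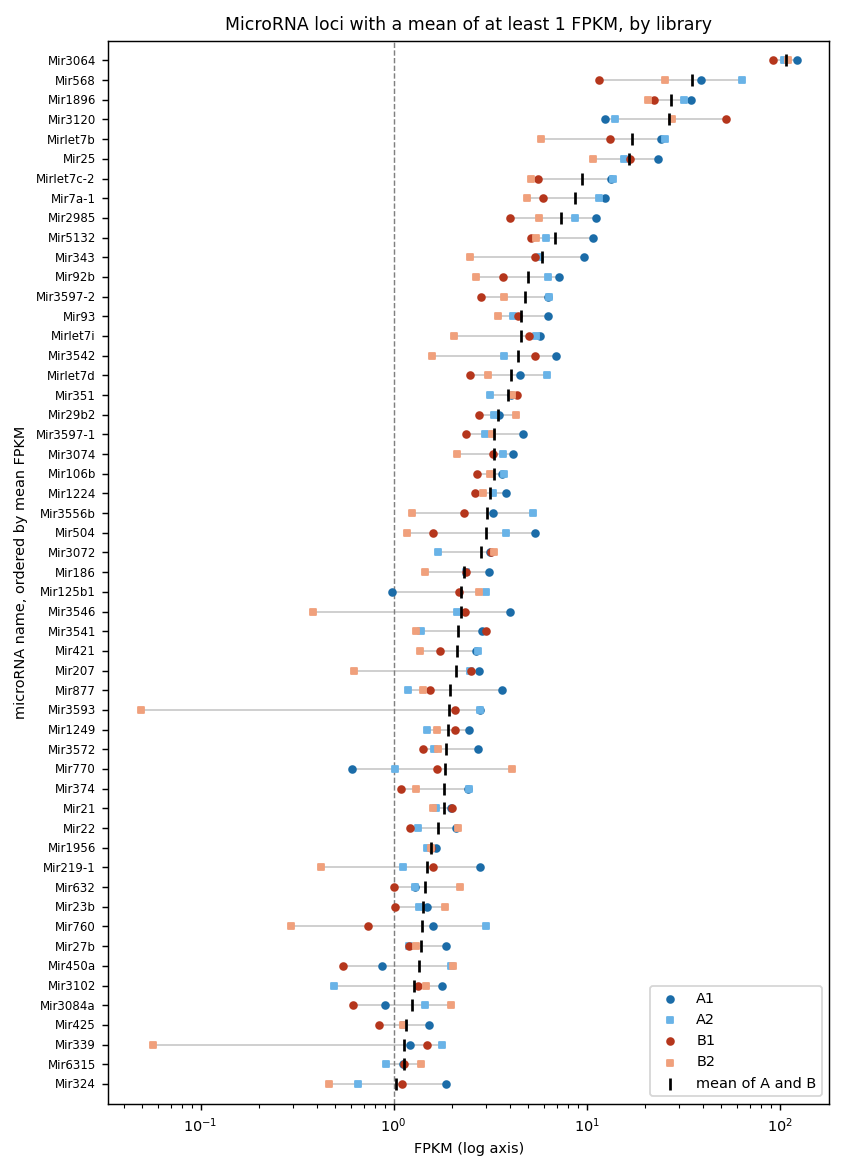
FPKM (log axis) of each of the 53 microRNA names with a mean of at least 1 FPKM, ordered by mean. Circles and squares are the 4 libraries, the black bar is the mean of replicates A and B, and the dashed line is 1 FPKM. Mir3064 stands apart at 107.8 FPKM, and the far left points of Mir3593 (0.0492) and Mir339 (0.0564) are both library B2.

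Mir3064 lies on the minus strand of chromosome 10 (rn6, chr10:94982051-94982117), inside Ddx5, an RNA helicase that is itself a partner of Drosha. In A1, A2, B1 and B2 its FPKM was 122.5, 105.9, 92.6 and 110.2 (107.8 ± 9.08, SD, n = 2). The libraries of A and B overlapped, and the highest was only 1.32 times the lowest. Ddx5 itself stood at 242 ± 28.3 FPKM, so the interval of the hairpin was covered at 44.5% of the level of its host.

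Mir568 (chr11:61996027-61996122, minus strand) was second, in no listed gene, with Zbtb20 as the nearest gene of the same strand, 18803 bases upstream. Zbtb20 encodes a zinc finger transcription factor of the developing cortex and hippocampus and stood at 19.2 FPKM. Mir568 was at 39.0 and 63.9 FPKM in replicate A (A1, A2) and at 11.6 and 25.4 in replicate B (B1, B2; 35.0 ± 23.3). Both libraries of A were above both of B, and the technical libraries of each replicate also lay far apart.

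Mir1896 (chr17:45204282-45204362, minus strand) was remote from genes of its own strand, the closest being Gpx6 at 234906 bases, which was listed at 0. Its level was even within each replicate, at 34.8 and 32.0 FPKM in A1 and A2 and 22.3 and 20.7 in B1 and B2 (27.4 ± 8.45). The next gene on the other strand, Nkapl, was 27512 bases away and at 0.585 FPKM, so Mir1896 stood far above both of its neighbours.

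Mir3120 (chr13:80130909-80131025, minus strand) lies inside Dnm3, which encodes dynamin 3, a GTPase of membrane fission. Its libraries of A held 12.5 and 14.0 FPKM and those of B 52.7 and 27.8 (26.8 ± 19.1). Dnm3 was at 3.93 ± 2.54 FPKM, so Mir3120 reached 681% of its host, the highest ratio on the list. The locus overlaps Mir214, which lies on the other strand and was at 0.878 FPKM. Whether the reads came from the strand of Dnm3 or from that of Mir214 was not tested, so the ratio to Dnm3 is uncertain.

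The next places were held by let-7 and the cluster of Mcm7. Mirlet7b (chr7:126590627-126590711) was at 24.4, 25.5, 13.3 and 5.81 FPKM in A1, A2, B1 and B2 (17.2 ± 10.9), and its neighbour Mirlet7c-2 at 13.4, 13.7, 5.61 and 5.14 FPKM (9.47 ± 5.79). Both were higher in A than in B without overlap. Mir25 (chr12:19307340-19307423), inside the replication helicase gene Mcm7, was at 23.3, 15.6, 16.8 and 10.8 FPKM (16.6 ± 3.97), with A and B overlapping.

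Mir7a-1 lies inside Hnrnpk, which encodes an abundant RNA-binding protein, and was at 12.4, 11.6, 5.92 and 4.91 FPKM in A1, A2, B1 and B2 (8.71 ± 4.66). Mir2985 lies inside Gria2, an AMPA receptor subunit gene, and was at 11.2, 8.74, 4.01 and 5.64 FPKM (7.39 ± 3.63). Mir5132 lies inside Irak1, a kinase of interleukin-1 and Toll-like receptor signalling, and was at 10.8, 6.16, 5.14 and 5.44 FPKM (6.89 ± 2.26). In these 3 the libraries of A were all above those of B.

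Mir343 lies inside Ercc2, a helicase of DNA repair and of the transcription factor TFIIH, and was at 9.70, 5.75, 5.41 and 2.50 FPKM (5.84 ± 2.67). Mir92b lies in no gene, 296 bases from Thbs3 on the other strand, and was at 7.19, 6.34, 3.70 and 2.68 FPKM (4.98 ± 2.53). These closed the 12 highest, and in both A was above B in every library.

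The order among neighbours on this list was seldom clear of the spread. Mir568, Mir1896 and Mir3120 lay within 1 SD of each other, as did Mirlet7b and Mir25. Just inside the threshold were Mir339 and Mir6315 at 1.14 FPKM each and Mir324 at 1.02. Just outside were Mir325 at 0.928, Mir24-2 at 0.908 and Mir349 at 0.902, each of them above 1 FPKM in at least 1 library, so the edge of the list was not sharp.

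The position of each locus was not used to choose it. Of 439 names with a single locus, 120 lay inside a gene of the same strand, and 22 of these (18.3%) were members. Of 22 names that overlapped a gene on the opposite strand only, 2 were members (9.09%): Mir324 in Acadvl and Mir3546 in Myh6. Of 297 names in no listed gene, 24 were members (8.08%). A locus that only partly overlapped a gene, as Mir632 did, was counted here. Hosted loci were thus 45.8% of the single-locus members and 27.3% of all single-locus names. Some genes hold several microRNAs, so the loci are not independent. The remaining 17 names had several loci, and 5 of them were members.

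The 22 hosted members lay in 19 genes, whose means ran from 2.38 FPKM (Vwa5b2) to 271 FPKM (Hnrnpk). Besides the hosts already described, Mir3084a lies in the splicing factor gene Sf3b3, Mir186 in Zranb2, another splicing factor gene, Mir3541 in Clk2, a kinase that phosphorylates splicing factors, and Mir3572 in Cnot3, of the complex that removes polyA tails. Mir207 lies in the co-chaperone gene Dnaja1, Mir877 in Abcf1, a factor of translation initiation, Mir1249 in RGD1304694 (now Kiaa0930) and Mir339 in LOC498154. Noncoding hosts were Lnc215 with Mir125b1, RGD1564124 with Mir421 and Mir374, and RGD1566401 with Mir770. RGD1564124 is now named Ftx, a long noncoding RNA of the X inactivation centre, and RGD1566401 is now Meg3, an imprinted long noncoding RNA.

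Most hosted members were covered well below their hosts. The median was 5.25% of the host's FPKM (5.69% in A, 4.79% in B), and 14 of the 22 were below 10%. After Mir3120, the highest ratios were those of Mir1224, at 3.16 FPKM in a host at 2.38 (133%), and of Mir3064. Mir1224 and Mir3120 were the only members above their hosts, and both hosts were below 5 FPKM. The lowest ratios of the means were those of Mir207 at 0.915% of Dnaja1 (2.10 against 229 FPKM), Mir125b1 at 2.37% of Lnc215 (2.24 against 94.5) and Mir3541 at 2.60% of Clk2 (2.15 against 82.5). Mir207 was lowest in each replicate (1.12% in A, 0.699% in B), though its level in B2 was 0.627 FPKM against 2.51 in B1. Mir125b1 was at 1.59% in A and 3.89% in B, where Mir7a-1 (2.05%) and Mir877 (2.31%) were among those below it.

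**Figure D2:**
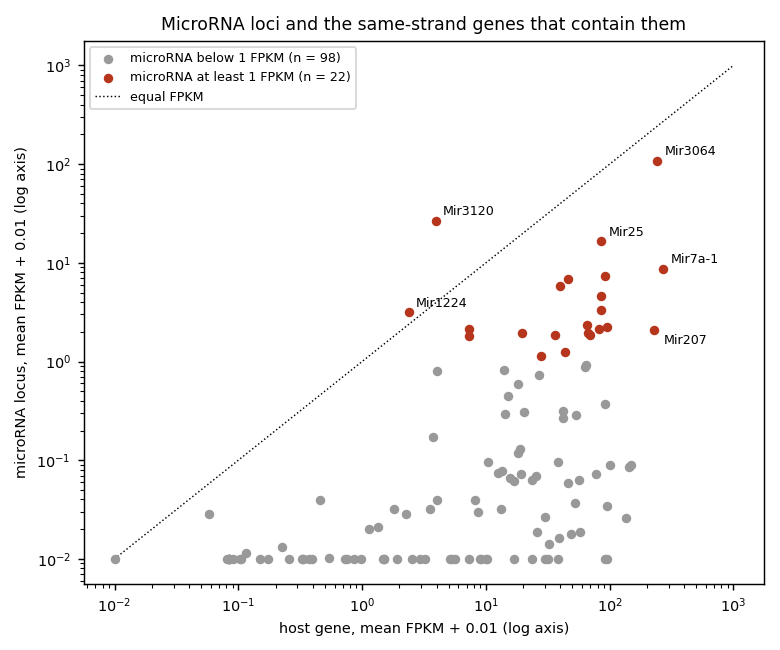
Mean FPKM of each of 120 single-locus microRNAs against the mean FPKM of the same-strand gene around it, with 0.01 added to both and both axes on log scales. Red points are the 22 members and grey points the 98 names below 1 FPKM, and only Mir3120 and Mir1224 among the members lie above the dotted line of equal FPKM.

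Members were counted by the level of the host, with no test, since microRNA FPKM chose them. No microRNA reached 1 FPKM among the 27 whose host was below 1 FPKM. The count was 4 of 27 (14.8%) for hosts from 1 to 10 FPKM, 6 of 39 (15.4%) from 10 to 50, and 12 of 27 (44.4%) at 50 or more. Across the 120 hosted loci the Spearman correlation of microRNA and host FPKM was 0.625, and over the 22 members alone it was 0.384. These are descriptions across loci that share libraries, hosts and clusters, and reads of an unspliced host transcript can be counted in both values. Listed at 0 in every library were 44 hosted microRNAs, of which 22 had a host below 1 FPKM, 13 a host from 1 to 10, 7 from 10 to 50 and 2 at 50 or more. Those with the highest hosts were Mirlet7a-2 in Lnc215 (94.5 FPKM), Mir342 in Evl (91.8), Mir30c-1 in Nfyc (38.1), Mir33 in Srebf2 (31.5) and Mir16 in Smc4 (29.8).

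Mcm7 shows the range within 1 host. Its 3 microRNAs sit within 494 bases on chromosome 12, and Mcm7 was at 94.7 FPKM in A and 76.1 in B. Mir25 was at 19.5% of it, Mir93 at 5.37% (4.59 ± 0.905 FPKM) and Mir106b at 3.87% (3.30 ± 0.532 FPKM). Mir25 was above both neighbours in each of the 4 libraries, and Mir93 was above Mir106b in each of the 4. In the Ftx gene, Mir421 and Mir374 within 224 bases were much closer to each other, at 2.13 and 1.82 FPKM in a host at 7.28.

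The other clusters, taken as loci on 1 strand with gaps of at most 10 kb, lay in no listed gene. Mirlet7c-2 and Mirlet7b sit within 500 bases of each other on chromosome 7, and the second was the higher in every library. Mir23b and Mir27b, within the same 814 bases of chromosome 17 as Mir24-1, were level at 1.43 and 1.39 FPKM, whereas Mir24-1 was at 0.106. Mir24-1 lies under the longer Mir3074 of the opposite strand (3.31 FPKM), so its low value need not mean less coverage there. On the X chromosome Mir322, Mir503, Mir351 and Mir450a span 5307 bases. Mir351 (3.91) and Mir450a (1.36) were members, and Mir503 (0.763) and Mir322 (0.342) were not. Mir351 has a second locus on the same chromosome, so its value cannot be given to this cluster alone.

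Members outside genes were often close to one. A gene of the same strand lay within 2 kb of 8 of the 24 (33.3%), against 15 of 269 other names in no gene (5.58%, leaving out 4 names whose rows were longer than 200 bases), and the median distance was 14.1 kb against 93.1 kb. The 8 were Mir632, which overlapped the start of Zfp207, Mir3593 (269 bases from Ralgapa1), Mir219-1 (324 bases from Ring1), Mir21 (534 bases from Vmp1), Mir1956 (796 bases from Eif4e), Mir425 (1040 bases from Dalrd3), and Mir23b and Mir27b (1642 and 1881 bases from Npepo). Mir21, widely raised in growing cells, lies past the annotated end of Vmp1 and was steady at 1.99, 1.66, 2.01 and 1.61 FPKM in A1, A2, B1 and B2. Mir1956 varied least of all 53, at 1.66, 1.49, 1.57 and 1.55 FPKM. The intervals are those of the tables, and exons and introns were not resolved here.

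Some members have a partner microRNA on the opposite strand of the same place. In rn6 there were 42 such pairs among single-locus names, 28 of them with a value above 0. The lengths differed in all 28, and the longer locus was the higher in 27, the exception being Mir3581 and Mir409. Of the 6 pairs that held a member, the longer locus was the member in each of the 6. Mir3597-2 (118 bases) was at 4.82 FPKM, with Mir9-2 (87 bases) at 0.0223. Mir3597-1 (108 bases) was at 3.32 FPKM, with Mir9-1 (89 bases) at 0.00229. Members and partners thus differed by far more than their lengths.

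The same held for Mir3120 (26.8 FPKM) over Mir214 (0.878) and for Mirlet7d (4.08) over Mir3596b (listed at 0). It also held for Mir3074 (3.31) over Mir24-1 (0.106) and Mir3546 (2.22) over Mir208a (listed at 0). The longer locus was on the plus strand in 2 of the 6 pairs and on the minus strand in the others. The kit is not stated to keep strand, so reads of a locus and of its antisense partner cannot be told apart. An FPKM under the name Mir3597-1 or Mir3597-2 may therefore hold reads of a transcript that runs through Mir9-1 or Mir9-2, and the same applies to each pair. Leaving out every name in such a pair left 47 members. Mir3556b, a member with several loci, was outside these pairs but also overlaps Mir29c (listed at 0) on the opposite strand.

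**Figure D3:**
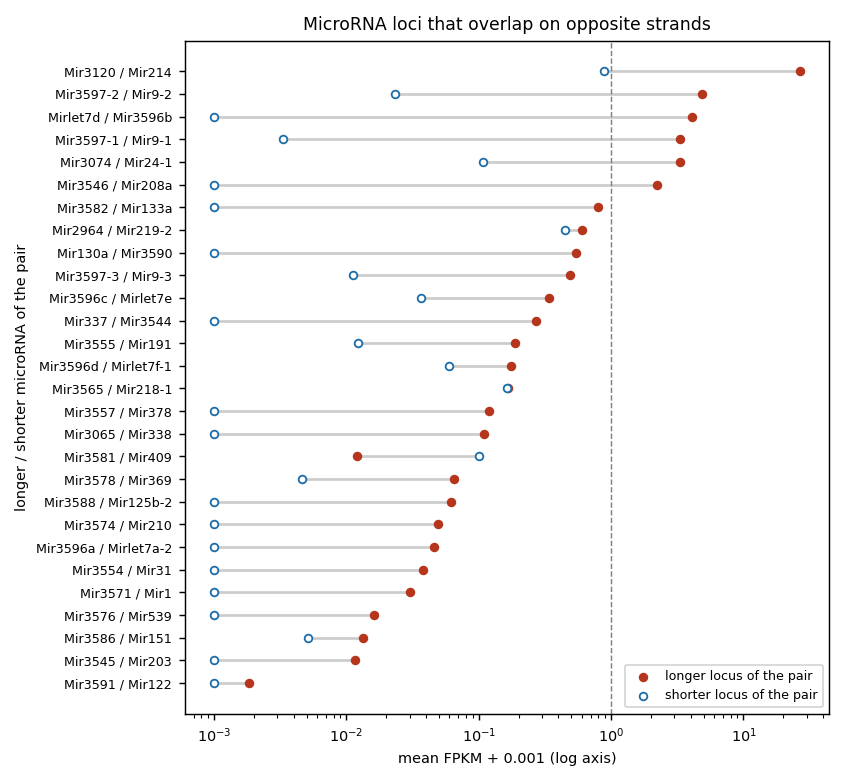
Mean FPKM plus 0.001 (log axis) of the 28 pairs of microRNA loci that overlap on opposite strands and had a value above 0, with the longer locus filled and the shorter one open. The filled point is to the right in 27 pairs, in 6 of them beyond the dashed line at 1 FPKM.

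Among the members with several loci, Mir29b2 and Mir3556b each have a locus on chromosomes 1 and 13 whose values were equal or nearly so (Mir29b2 1.75 and 1.75 FPKM in A1, Mir3556b 1.65 and 1.61). Whether such copies share reads was not tested, and which of them was transcribed is uncertain. Mir3542 and Mir351 have 2 loci on 1 chromosome, given as 1 long row in some libraries and as separate rows in others. Mir504 is listed at a pair of 21-base intervals, on chromosomes 4 and 6, and in every library the value came from chromosome 4 alone. RefSeq GRCr8 places the hairpin of Mir504 on the X chromosome, so this value is uncertain as a measure of that gene.

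Several microRNAs known in neural cells did not reach the list. Mir9-1, Mir9-2 and Mir9-3 were at 0.00229, 0.0223 and 0.0103 FPKM, and Mir124-1, Mir124-2 and Mir124-3, of a microRNA of differentiating neurons, at 0.0119, 0.0270 and 0.0537. Mir17, Mir18a, Mir19a, Mir19b1, Mir20a and Mir92a1, which form a proliferation-linked cluster, were between 0.111 and 0.442 FPKM. Of the names of the let-7 family, Mirlet7b, Mirlet7c-2, Mirlet7d and Mirlet7i were members, and the others did not pass 0.332 (Mirlet7c-1). These values concern polyA RNA and not mature microRNA. Those of Mir9-1 and Mir9-2 also depend on which strand's name received the reads, since Mir3597-1 and Mir3597-2 cover the same hairpins at 3.32 and 4.82 FPKM.

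Genes of microRNA processing were well represented. Of 24 on the list, 19 were in the tables and 17 were at 1 FPKM or more, with a median of 22.8 FPKM over the 19. Drosha was at 26.1 ± 1.32 FPKM, its partner Dgcr8 at 16.7 ± 3.61, and the helicases Ddx5 and Ddx17 at 242 and 170. Xpo5, which exports hairpins from the nucleus, was at 22.9, and the Dicer partners Tarbp2 and Prkra were at 47.5 and 55.3. Among the Argonautes, Ago1 was at 22.8, Ago4 at 2.67, Ago2 at 1.44 and Ago3 at 0.456. Lin28a, which blocks let-7 maturation, was at 0.0830 FPKM, and Dicer1 and Lin28b were not analysed here.

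Of 10 genes known as targets of let-7, miR-9 or miR-124, 8 were at 1 FPKM or more. Ptbp1, a splicing repressor and target of miR-124, was at 121 ± 24.4 FPKM, Ctdsp1 at 92.4 ± 17.5 and the progenitor factor Sox9 at 117 ± 24.7. Of the let-7 targets, Igf2bp1 was at 5.83 FPKM, Trim71 at 0.0968 and Hmga2 at 0.795. Hmga2 rested on 1 library, at 0.399, 0.414, 2.20 and 0.168 FPKM in A1, A2, B1 and B2. Whether any microRNA acted on them was not tested.

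Replicates A and B were then compared. A gene was called differing where its mean was at least 1 FPKM, the replicate means differed by at least 1 on the log2(FPKM + 1) scale, and no library of A overlapped one of B. With 1 biological sample on each side there is no test, and the same rule over all 10481 genes at 1 FPKM called 6.2% of them. The rule called 8 of the 53 members. Mir760 and Mir770 are among them and passed 1 FPKM only through the replicate in which they were high, and the same filter was applied to the background genes. Of the 8, 6 were higher in A, where the background was 1.42%, and 2 were higher in B, where it was 4.78%. Without the condition on size, 27 members did not overlap (background 60.1%). Of these 22 were higher in A without overlap (background 32%) and 5 in B (background 28.1%), and the other 26 overlapped. The mean was higher in A for 41 of the 53 (77.4%) and for 53.2% of all genes tested. Mir324, Mir339 and Mir425, like Mir760, were among the 41 and under 1 FPKM in B, and Mir425 was also among the 22. The median difference of B minus A was -0.36 over the members and -0.03 over all genes tested.

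The 6 higher in A were Mir568, with a difference of -1.43, Mirlet7b (-1.30), Mir504 (-1.24), Mirlet7c-2 (-1.19), Mir760 (-1.13) and Mir7a-1 (-1.02), all as B minus A on the log2(FPKM + 1) scale. Mir504 was at 5.43 and 3.82 FPKM in A1 and A2 and at 1.59 and 1.17 in B1 and B2. Mir760 was at 1.59 and 3.02 FPKM in A and at 0.735 and 0.293 in B. In B2 the value of Mir760 rested on a read depth of 2, and with B1 alone on the B side its difference was -0.93. Mirlet7b (-0.86) and Mir7a-1 (-0.91) also fell short of 1 without B2, whereas Mir568, Mir504 and Mirlet7c-2 stayed past it.

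The 2 higher in B were Mir3120 (1.53) and Mir770 (1.10). Mir770 was at 0.608 and 1.02 FPKM in A1 and A2 and at 1.68 and 4.11 in B1 and B2, and without B2 its difference was 0.56. Mir3120 stayed past 1 without B2. The hosts of both were also called higher in B, though which strand the reads of Mir3120 came from was not tested. Dnm3 was at 2.13 FPKM in A and 5.72 in B (1.10), and Meg3 at 33.8 in A and 105 in B (1.61). By contrast Hnrnpk, the host of Mir7a-1, was at 278 in A and 264 in B (-0.07). Without B2 the rule called 5 members, 4 of the 8 and Mir2985, and 571 of all genes.

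The mesenchymal and meningeal markers (Col1a1, Col1a2, Col3a1, Dcn, Lum and Pdgfra) were among the 501 genes called higher in B. So were Mir3120, Mir770, Dnm3 and Meg3, and a link between them and the markers was not tested. Of the 7 listed neural progenitor markers, 2 were called, both higher in A. Fabp7 was at 17679 FPKM in A and 6003 in B, and Hes5 at 398 and 180, whereas Sox2, Pax6, Hes1, Nes and Vim were not called. Of the other lists, 1 of 4 astrocyte markers was called higher in A (S100b, 384 and 176 FPKM in A and B) and 1 of 4 oligodendrocyte lineage markers higher in B (Olig1, at 172 and 194.9 FPKM in A1 and A2 but 523 in B1 and 237 in B2, so that the call rested on B1). The part of cell composition in these differences was not tested, and in cultures of mixed cells fewer cells of a type and less RNA per cell cannot be told apart. None of the processing genes was called.

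**Figure D4:**
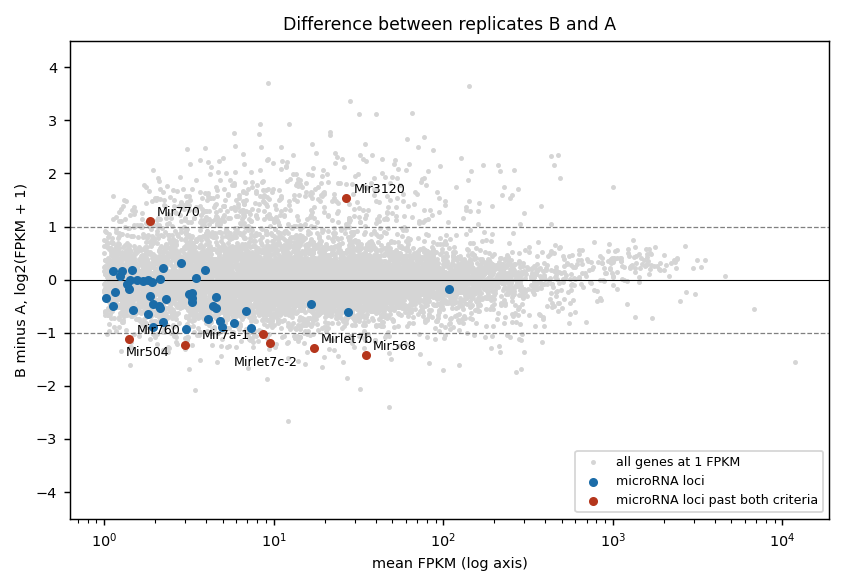
Difference of replicate B minus A on the log2(FPKM + 1) scale against mean FPKM (log axis) for all genes at 1 FPKM or more (grey), the 53 microRNA names (blue) and the 8 called differing (red), with dashed lines at 1 and -1. Of the 53 points 41 lie below 0, and 1 gene falls outside the plotted range.

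**Figure D5:**
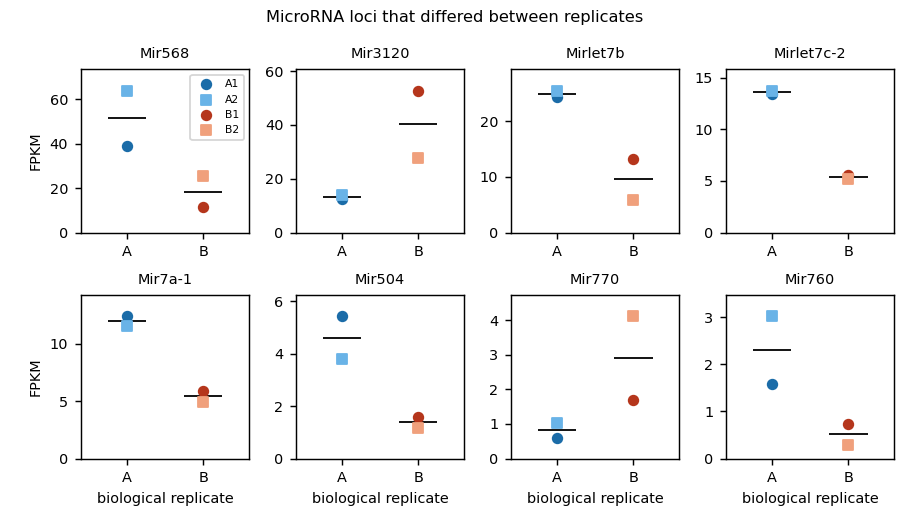
FPKM (linear axes from 0) of the 8 called microRNA names in the libraries of replicates A and B, with a bar at each replicate's mean. Mir3120 and Mir770 are higher in both libraries of B, the other 6 are higher in both libraries of A, and the technical libraries of Mir568, Mir3120, Mir770 and Mir760 lie far apart.

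Base composition was a feature the rule did not use. Hairpin sequences were found for 42 members, with a median GC content of 55.4% (range 32.3 to 72.4%), against 49.4% (28.6 to 81.3%) over 342 other microRNA names, so the ranges overlapped widely. Member loci had a median length of 91 bases (48 with a single locus).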

How the data were processed

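PolyA RNA of 2 biological replicates (A, B) was sequenced as 2 technical libraries each (A1, A2, B1, B2) after NEBNext Ultra II preparation with polyA selection. Per the study's methods, the authors aligned reads to rn6 with STAR. The table layout is that of StringTie, which the submitters' processing notes also name, though the methods credit FPKM to other tools, so the program that made the values is not settled. The FPKM values were deposited by the authors and were used as given. The authors also deposited TPM, which was used as an alternative, and coverage (mean read depth), a signal used for depth only. No counts were used, so depth is given as coverage per FPKM, the same for all 48 single-locus members within 1%.

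Rows of 1 Gene ID were summed, technical libraries averaged, then replicates. A host was the shortest other gene on the same strand that held the whole locus, and rows that spanned over 3 times the gene's RefSeq (GRCr8) length were not used. Newer symbols and sequences are from RefSeq GRCr8, and no coordinate was converted. Named were the 12 highest members, those differing, those nearest 1 FPKM, those in clusters or sharing a seed, extremes of the host ratio, and fixed lists. Members near a gene, equal copies and names in the Meg3 region were named after their values were seen. The members and lists were chosen with earlier results of these data known. The rule for differing genes was checked on simulated data. Tables were handled with pandas 2.3.3 in Python 3.11.15, with numpy 2.4.6 for arithmetic, scipy 1.17.1 for rank correlations, and matplotlib 3.10.9 for figures.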

Additional observations from a re-analysis of the deposited data

Results flagged for a closer look

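Among 56 values examined over the 4 libraries, 5 had 1 library apart from the others by Dixon's criterion. Chance marks about 1 in 20 such groups, and since the libraries are technical pairs of 2 cultures they are not independent. Coverage per FPKM was 6.83 in B2, against 22.7 to 24.4 in the other 3, which is the shallow library. Mir207 was at 0.627 FPKM in B2 and between 2.49 and 2.78 in the others, with a read depth of 4.28 in B2. Mir27b was at 1.88 FPKM in A1 and between 1.20 and 1.30 elsewhere. Mir3072 was at 1.69 FPKM in A2 and between 3.15 and 3.32 elsewhere. Mir877 was at 3.66 FPKM in A1 and between 1.19 and 1.55 elsewhere, so its mean of 1.95 FPKM is raised by 1 library. Apart from B2 in the first of these, no cause was examined.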

How the results depend on the processing

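Over 41 alternatives to 7 results, 30 kept the value within the margin (1.5 times for a count, 1 SD between replicates for other values), 11 moved it and 0 reversed a direction. Only the correlation could have reversed, since counts, levels and ratios cannot be negative. Within that margin the number of members was 73 at 0.5 FPKM, 68 at 1 TPM and 39 with 1 FPKM in every library. The number of members was 32 at a threshold of 2 FPKM and 11 at 5 FPKM, by construction. The median level was 3.92 as TPM, a different unit, and 2.16 to 2.80 with 1 replicate left out. The median ratio to the host was 3.96% for hosts of at least 10 FPKM. The correlation of microRNA and host was 0.384 over members only, 0.420 as Pearson on log2(FPKM + 1), 0.588 without B2, and 0.582 to 0.615 with 1 replicate left out. The number of differing members was 18 at a difference of 0.58 and 5 without B2, where Mirlet7b, Mir7a-1, Mir760 and Mir770 fell under the limit and Mir2985 (-1.13) passed it. Why these values moved was not tested. The share of all genes called at a difference of 0.58 was not counted, so the 18 members have no background. Mir7a-1 alone was lost when libraries were scaled to a median difference of 0 (7 members). Mir2985, Mir3556b, Mir3593 and Mir92b were added with a pseudocount of 0.1 or with TPM (12 members each). All genes were not counted under those settings either, so the 12 cannot be set against a background. No processing gene was called differing under any alternative run. Without B2, 51 members stayed, Mir3084a and Mir450a left, and Mir214, Mir24-2 and Mir761 joined. Depth limits the values of low members in B2. No paired analysis was possible because there was 1 condition and no table of the Start-seq samples was used.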

Other observations

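Within 1 Mb of Mir770, in the imprinted region around Meg3 on chromosome 6, the tables list 58 single-locus microRNA names. Of these 2 were members, Mir770 inside Meg3 (1.86 FPKM) and Mir3072 at the far end of the large cluster (2.84 FPKM), and 33 were at 0 in every library. Among the rest the highest was Mir433 at 0.476 FPKM. Meg3 was at 69.6 FPKM, and Mir3072 lay 207666 bases beyond it with no other listed gene of its strand between them. Mir3072 was at 3.15, 1.69, 3.21 and 3.32 FPKM in A1, A2, B1 and B2, a difference of 0.32 (B minus A, log2(FPKM + 1)), against 1.61 for Meg3 (44.1 and 23.4 in A1 and A2, 113 and 97.6 in B1 and B2).

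The name Mir155hg, a host gene RNA that the naming rule also takes in, was at 0.194 FPKM and was counted among the 456 names. Mir219-1 was at 2.80, 1.12, 1.59 and 0.419 FPKM, while its relative Mir219-2 was listed at 0 in both libraries of A and was at 0.121 in B1 and 1.66 in B2.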
